A study of Taeniopygia guttata with 5 samples.

Results

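NEUROD6, FOXP2, MEIS2, EBF1, EBF3, ZIC1 and ISL1 are 7 transcription factors that mark pallium, striatum, basal forebrain or cerebellum, and they were followed here through RNA-Seq of the song nucleus HVC and of whole brain in the zebra finch. They were taken by gene name from the 4 deposited tables, each gene had 1 transcript, and they make up 7 of the 4675 transcripts listed in at least 1 table. Juvenile HVC at 45 d gave 2 libraries (R92L1 and R92L2) and adult HVC at 100 d gave 1, and whole brain gave 1 library at each age, all from males, with no genetic change or drug treatment named in the labels. Each HVC library pooled RNA of 4 males and each whole brain library RNA of 2 males. The ventricular zone that borders HVC may have entered the dissected tissue. Each table was cut to 1800 transcripts, those ranked first by p in its comparison, so a factor can lack a count in a library: 6 of the 7 had counts in each HVC library and in 45 d whole brain, 5 had them in 100 d whole brain, and 4 (NEUROD6, EBF3, ZIC1 and ISL1) had them in all 5 libraries.

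Transcription factors of this kind fix the regional identity of neurons in the embryo, and many stay on in the mature cells, where they mark the division of the brain a neuron belongs to. HVC lies in the avian pallium, whereas whole brain RNA also holds striatum, basal forebrain, thalamus, midbrain, hindbrain and cerebellum. Among the 7, NEUROD6 is a basic helix-loop-helix factor of excitatory pallial neurons in mouse. ZIC1 is a zinc finger factor of cerebellar granule cells, and EBF3 is a factor of the COE family found in mouse Cajal-Retzius cells and in neurons of the midbrain and hindbrain. EBF1, a paralog of EBF3, and MEIS2, a TALE homeodomain factor, act in mouse striatal projection neurons. ISL1 is a LIM homeodomain factor of mouse striatal and basal forebrain cholinergic neurons, and FOXP2 is a forkhead factor of striatal neurons and Purkinje cells that juvenile finches need in the striatal song nucleus Area X for accurate song learning.

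The counts of listed transcripts summed to between 495316 and 1014565 reads per library, which is a part of each library and not its depth. Levels are therefore given as raw reads and as scaled reads, that is, reads divided by the relative size of the library with 100 d HVC set to 1 (0.905 for R92L1, 1.09 for R92L2, 1.81 for 45 d whole brain and 1.51 for 100 d whole brain). Every fitted transcript was among those ranked first by p in at least 1 table. Shares and medians over all fitted transcripts are therefore not those of all transcripts tested. The 6 fitted transcripts of 5 HVC marker genes were all called higher in HVC than in whole brain at both ages. Among them was ALDH1A2, which makes retinoic acid. Of all fitted transcripts 14.0% (45 d) and 10.9% (100 d) were called higher. The list holds genes that the authors named as enriched in adult HVC, so these calls are no independent check. PVALB-1, with 0 reads in both whole brain libraries, passed the filter on low counts through HVC alone and could be called only higher. With sums of listed counts and with DESeq2, CADPS2 lost its call at 45 d and PVALB-2 at both ages. PVALB-2 also lost its 100 d call with TMM and PVALB-1 with DESeq2. HVC and whole brain came from different runs, so tissue and run cannot be told apart, whereas both ages of a tissue shared a run. Only the 45 d HVC group was repeated, nothing says that its libraries came from separate birds, so the p-values cover a spread that may be only technical. Other groups were single libraries and were assumed to vary like that pair. In bulk RNA, fewer cells of a type and less RNA per cell cannot be told apart.

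ZIC1 (chromosome 9, 13479678 to 13483103, plus strand of taeGut1) had 8 reads in R92L1, 22 in R92L2 and 24 in 100 d HVC, against 508 in 45 d and 447 in 100 d whole brain. In scaled reads these were 8.84, 20.1, 24.0, 281 and 297, so the 3 HVC libraries lay far below both whole brain libraries, although R92L1 and R92L2 were 2.28-fold apart. ZIC1 was lower in HVC than in whole brain by a log2 fold change of -4.23 (SE 0.39, edgeR quasi-likelihood test, adjusted p = 8.15e-08) at 45 d and of -3.62 (SE 0.52, adjusted p = 3.68e-09) at 100 d. These are 18.8-fold and 12.3-fold lower levels.

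EBF3 (chromosome 6, 35154199 to 35276306, minus strand) had 6 reads in R92L1, 4 in R92L2, 3 in 100 d HVC, 265 in 45 d whole brain and 256 in 100 d whole brain. The scaled reads were 6.63, 3.66, 3, 146 and 170, and again no HVC library came near a whole brain library. At 45 d EBF3 was lower in HVC by a log2 fold change of -4.83 (SE 0.50, edgeR adjusted p = 5.68e-07), or 28.5-fold. At 100 d the log2 fold change was -5.77 (SE 0.77, edgeR adjusted p = 1.31e-10), and since it rests on 3 HVC reads the ratio of scaled reads is given with its 95% counting interval: whole brain held 56.6 times the HVC level (19.2 to 276). ZIC1 and EBF3 stayed past the threshold at both ages under every other scaling and test that was tried, but with much larger adjusted p in some. At 45 d the highest were 0.0112 (ZIC1) and 0.0221 (EBF3), both with limma-voom. At 100 d the highest were 0.0843 (ZIC1) and 0.0319 (EBF3), both from edgeR with TMM, so ZIC1 there would miss a threshold of 0.05.

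**Figure D1:**
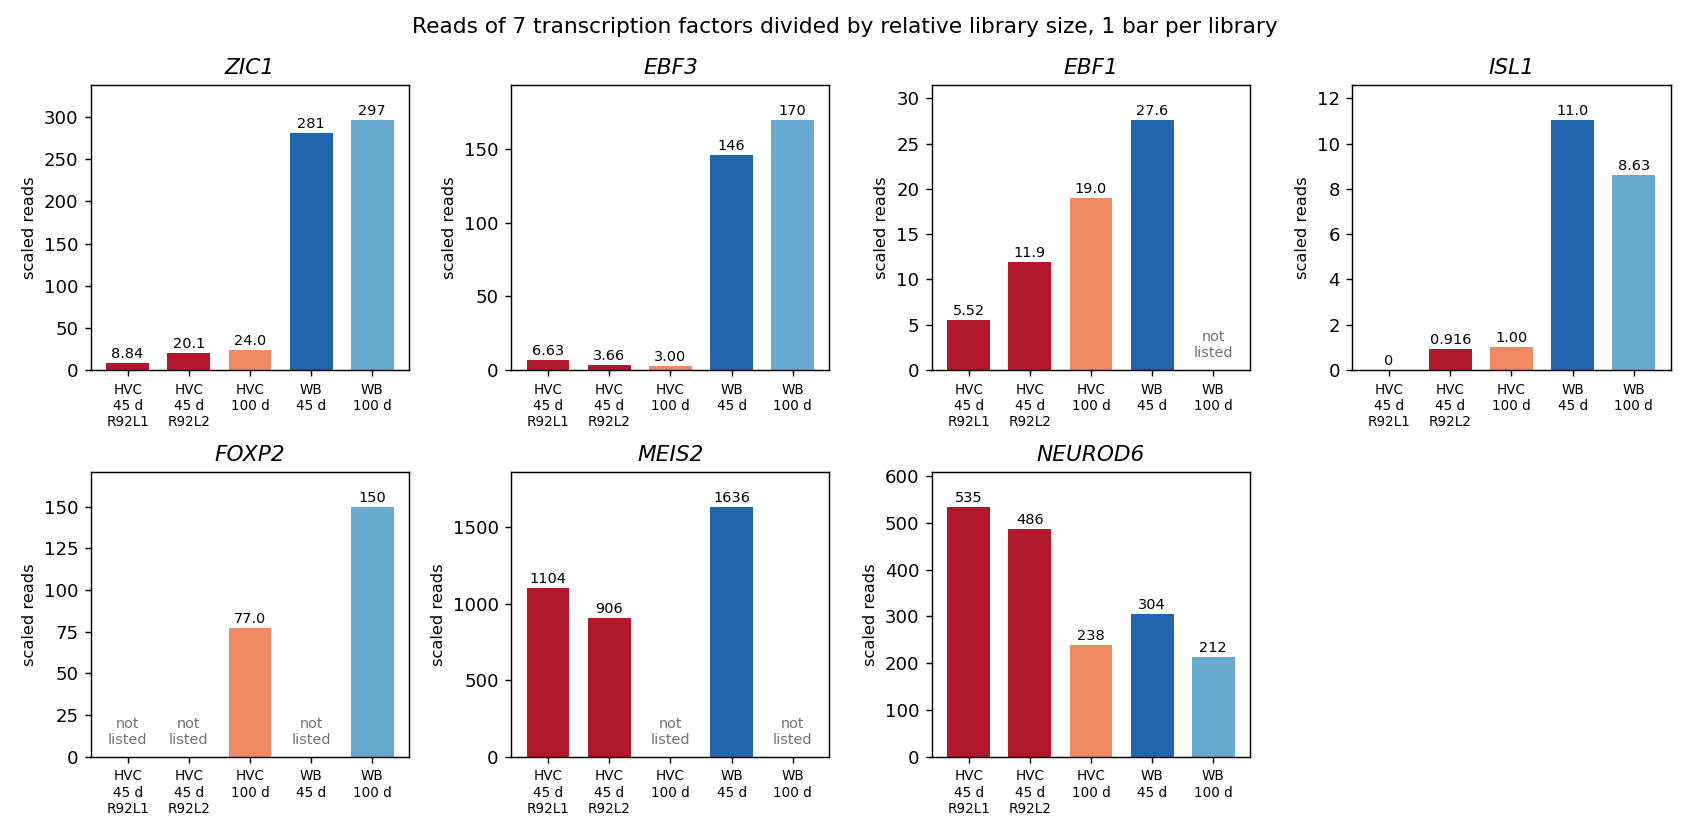
Scaled reads (raw reads divided by relative library size, linear axes from 0) of the 7 transcription factors, with 1 bar for each of the 5 libraries and the value printed above it; WB is whole brain, and libraries in which a transcript is not listed carry that note. ZIC1 and EBF3 reached at most 24.0 and 6.63 scaled reads in HVC and at least 281 and 146 in whole brain, whereas NEUROD6 was highest in the 2 libraries of 45 d HVC.

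The neighbouring paralog ZIC4, which lies 10975 bases from ZIC1 on the opposite strand and is expressed with it in mouse cerebellum, was also nearly without reads in HVC. It had 0 reads in R92L1, 1 in R92L2 and 0 in 100 d HVC, against 18 in juvenile and 11 in adult whole brain. The 45 d log2 fold change of ZIC4 was -4.07 (SE 1.42, edgeR adjusted p = 0.125). At 100 d HVC had no read, and whole brain was 2.43-fold higher than a floor of 3 reads, which is no lower bound. The exact counting interval for whole brain over HVC at 100 d reached down to 1.67-fold. No listed transcript overlapped ZIC1, EBF3 or any of the other 5 factors. EBF1 and EBF3 are related in sequence, and reads that fit both could have been counted for either.

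Of 25 cerebellar transcription factors, 8 were listed anywhere and 4 were fitted at 45 d, of which 3 were called lower in HVC and 0 higher, with 21.5% of all 1928 fitted transcripts called lower. At 100 d 2 of the 3 fitted were called lower, where 14.0% of all 1361 fitted transcripts were. The members not called, ZIC4 at 45 d and TFAP2B at 100 d, passed the filter on low counts through whole brain alone. Those 2 could be called in no direction but lower. The list's median log2 fold changes were -1.85 and -1.89, beside -0.69 and -0.42 over all fitted transcripts. RORA, a nuclear receptor that Purkinje cells need, had 127, 143 and 154 reads in R92L1, R92L2 and 100 d HVC and 915 and 735 in 45 d and 100 d whole brain. RORA was lower by log2 fold changes of -1.90 (SE 0.29, edgeR adjusted p = 0.000257) and -1.66 (SE 0.39, adjusted p = 0.00221). PAX6, a factor of granule cells that also serves pallial progenitors, was lower by a log2 fold change of -1.80 at 45 d (SE 0.47, edgeR adjusted p = 0.0262) and of -1.89 at 100 d (SE 0.63, adjusted p = 0.0889). PAX6 lost both calls under all 3 other scalings and with DESeq2, and its 100 d call also with limma-voom. RORA kept its 45 d call throughout and lost that at 100 d with TMM, relative log expression and DESeq2. ETV1, an ETS factor of granule cells that also marks deep layer cortical neurons in mouse, had 193 reads in R92L1, 169 in R92L2 and 716 in 45 d whole brain, and it was lower by a log2 fold change of -1.11 (SE 0.30, edgeR adjusted p = 0.0378), a call lost with sums of listed counts, TMM, relative log expression, DESeq2 and limma-voom. ZIC1 and EBF3 belong to none of these lists.

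The cerebellar neuron markers moved both ways. Of 12 such genes 8 transcripts were fitted at 45 d, of which 4 were called lower in HVC (21.5% of all fitted transcripts were) and 2 higher (14.0%), and at 100 d 2 of 6 were called lower (14.0% of all) and 2 higher (10.9%). Those called higher were both PVALB transcripts, which also mark HVC interneurons. PVALB-1 passed the filter on low counts through HVC alone, and GABRA6 and SLC1A6 through whole brain alone. Each of them could be called in 1 direction only. DESeq2 called 1 lower and 1 higher at 45 d and 1 lower and 0 higher at 100 d, and FAT2 kept its call at both ages under all 6 other fits. FAT2, a cadherin of granule cells, had 14, 42 and 30 reads in the HVC libraries and 869 and 477 in whole brain. GABRA6, the granule cell GABA receptor subunit, had 0, 0 and 1 reads in HVC against 32 and 21 in whole brain. TTR, listed as TTR-1 and made by choroid plexus, had 9, 18 and 11 reads in HVC and 1401 and 1240 in whole brain. The part of these cell types in the ZIC1 and EBF3 differences was not tested. The summed scaled reads of the 6 cerebellar marker transcripts present in all 5 libraries, PVALB included, ranged from 1013 to 1339 in HVC and from 1178 to 1260 in whole brain and did not separate the tissues. Without PVALB, the sum over the other 4 (FAT2, GABRA6, SLC1A6 and CALB1) ranged from 128 to 189 in HVC and from 629 to 854 in whole brain. The sum without PVALB was added after seeing the data. It leaves out the transcripts called higher in HVC, so its gap between the tissues is no support for a difference.

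ISL1 (chromosome Z, 45690056 to 45701011, plus strand) was close to undetected in HVC, with 0 reads in R92L1, 1 in R92L2 and 1 in 100 d HVC, against 20 in 45 d and 13 in 100 d whole brain. The whole brain levels were 11 and 8.63 scaled reads, against 0 to 1 in HVC. The log2 fold change at 45 d was -4.22 (SE 1.38, edgeR adjusted p = 0.0915), and by counting error alone whole brain held 22.1 times the HVC level with a 95% interval from 3.53 to 915. This call was lost under each of the 3 other scalings, with DESeq2 and with limma-voom (adjusted p from 0.129 to 1). At 100 d ISL1 had too few reads to be fitted, and whole brain held 8.63 times the HVC level (1.30 to 367). That interval covers counting error only. In the exact test given below for FOXP2, ISL1 had a log2 fold change of -2.99 at 100 d and did not pass the threshold.

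FOXP2 (chromosome 1A, 25373922 to 25773703, minus strand) was listed only in the 100 d comparison of the tissues, where HVC had 77 reads and whole brain 226, or 77.0 and 150 scaled reads. The HVC level was thus 0.513 of that in whole brain (95% counting interval 0.391 to 0.668). Without counts in the 45 d HVC pair it could not be put in the fit. An exact test of edgeR with the dispersion of that pair, chosen after seeing the data, gave a log2 fold change of -0.96 (p = 0.0410, adjusted p = 0.368), and it called 21.1% of 2076 transcripts. FOXP2 at 45 d is not analysed here, so no age difference can be given for it.

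MEIS2 (chromosome 5, 30610960 to 30922074, plus strand) was listed only in the 45 d comparison of the tissues and had 999 reads in R92L1, 989 in R92L2 and 2961 in whole brain. The scaled reads were 1104, 906 and 1636, so both HVC libraries lay below whole brain, and they were 1.22-fold apart from each other. The log2 fold change of -0.70 (SE 0.29, edgeR adjusted p = 0.230) did not pass the threshold. It was near the median of -0.69 over all fitted transcripts. Those transcripts were listed for their rank by p, so that median is not that of all transcripts tested.

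EBF1 (chromosome 13, 4019793 to 4289899, plus strand) had 5 reads in R92L1, 13 in R92L2, 19 in 100 d HVC and 50 in 45 d whole brain, and it was not listed for 100 d whole brain. The scaled reads were 5.52, 11.9, 19.0 and 27.6, with the 45 d HVC pair 2.16-fold apart. At 45 d the log2 fold change of EBF1 was -1.63 (SE 0.64, edgeR adjusted p = 0.189). Its distance from whole brain was therefore smaller than that of EBF3 at the same age, but the difference between these paralogs was not tested.

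**Figure D2:**
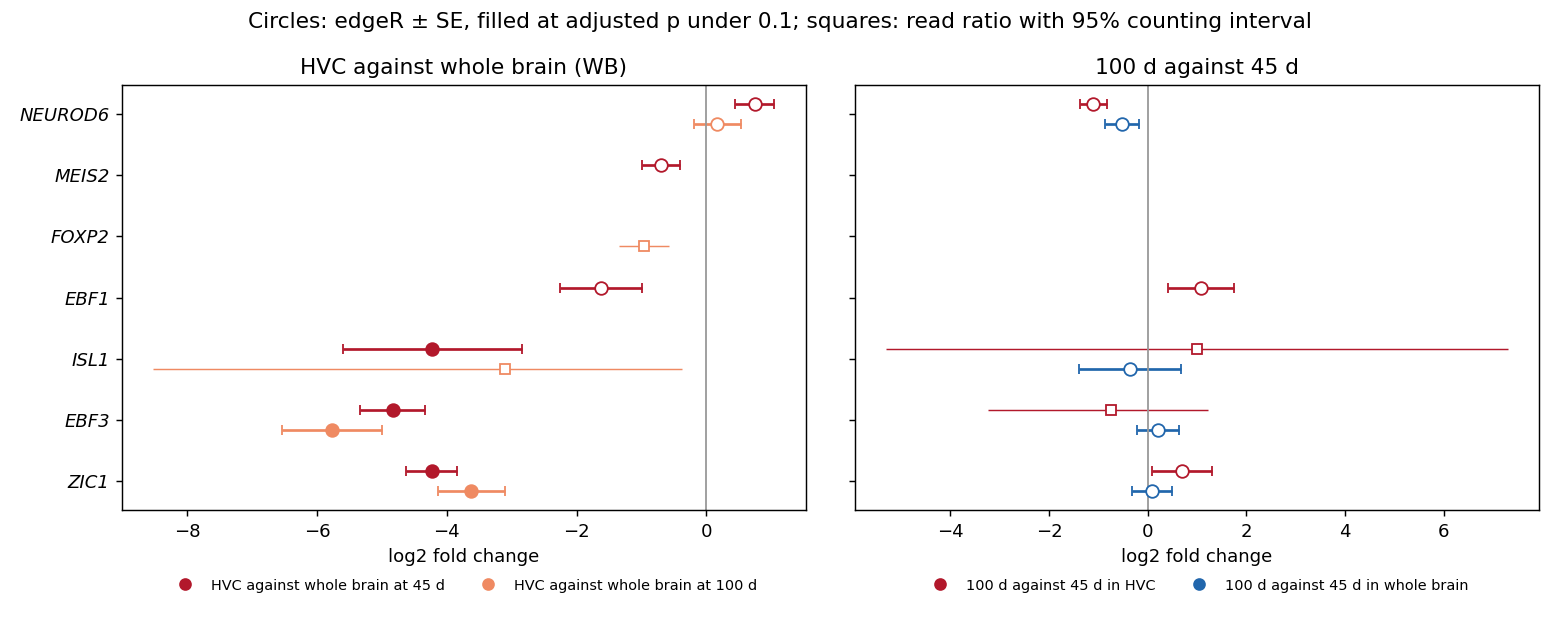
Log2 fold changes of the 7 transcription factors between HVC and whole brain (left) and for 100 d against 45 d (right). Circles are edgeR estimates with their SE, filled where the adjusted p was under 0.1, and squares are ratios of scaled reads with 95% counting intervals for factors that could not be fitted. Filled circles stand at -4.23, -4.83 and -4.22 for ZIC1, EBF3 and ISL1 at 45 d and at -3.62 and -5.77 for ZIC1 and EBF3 at 100 d, and no circle is filled for the ages.

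In all, 6 of the 7 factors were fitted at 45 d, and 3 of them (ZIC1, EBF3 and ISL1) were called, each lower in HVC. Over all transcripts fitted at that age 35.4% were called in either direction. At 100 d 3 of the 7 were fitted and 2 (ZIC1 and EBF3) were called, beside 24.8% of all fitted transcripts. EBF3 at both ages and ISL1 at 45 d passed the filter on low counts through whole brain alone. They could be called in no direction but lower, so that direction is no support for a difference. Other scalings shifted the median log2 fold change of all transcripts upward, by 0.30 (TMM) and 0.55 (relative log expression) at 45 d and by 0.28 and 0.36 at 100 d, and with them the split of calls. The 45 d calls were 269 higher and 414 lower with the recovered sizes, 217 and 99 with TMM, and 649 and 123 with relative log expression; DESeq2 gave 63 and 60. The 100 d calls were 148 higher and 190 lower, 48 and 14 with TMM, and 150 and 38 with relative log expression.

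Among 28 striatal and basal forebrain transcription factors 9 were listed anywhere, and of the 6 fitted at 45 d 2 were called lower and 0 higher in HVC, beside 21.5% and 14.0% of all fitted transcripts. With relative log expression 1 was called lower and 1, SOX6, higher. LHX8, a LIM homeodomain factor that mouse basal forebrain cholinergic neurons need, had 3 reads in R92L1, 7 in R92L2, 47 in 100 d HVC, 163 in 45 d whole brain and 165 in 100 d whole brain. It was lower in HVC at 45 d (log2 fold change -4.15, SE 0.56, edgeR adjusted p = 4.26e-05), while at 100 d its value was -1.22 (SE 0.57, adjusted p = 0.470). At 45 d LHX8 passed the filter on low counts through whole brain alone and could be called in no direction but lower. ZFHX3, a zinc finger homeobox factor, was lower at 45 d (-1.30, SE 0.29, edgeR adjusted p = 0.00775), a call lost with TMM, relative log expression and DESeq2. At 100 d 1 of the 4 fitted was called, SOX6, which was higher in HVC, as 10.9% of all fitted transcripts were. SOX6, needed by interneurons of the medial ganglionic eminence in mouse, had 251, 338 and 410 reads in HVC against 294 and 220 in whole brain, which gave a 100 d log2 fold change of 1.49 (SE 0.37, edgeR adjusted p = 0.00617). That call was lost with sums of listed counts and with DESeq2.

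Striatal neuron markers gave no call in either direction at 45 d, with 3 fitted (DRD2, PDE10A and PENK), or at 100 d, with 1 fitted. Of all fitted transcripts 35.4% and 24.8% were called, so with so few fitted the lack of calls is no result. PENK was called lower at 45 d without the filter on low counts (edgeR adjusted p = 0.0889). PDE10A, a phosphodiesterase abundant in striatal projection neurons, had 229 and 290 reads in 45 d HVC, 818 in 100 d HVC, and 801 and 906 in 45 d and 100 d whole brain. Both fitted cholinergic markers were called lower in HVC at 45 d, where 21.5% of all fitted transcripts were. Neither was called at 100 d, where 24.8% of all fitted transcripts were called in either direction. These were CHAT, which makes acetylcholine, and SLC5A7, which takes up choline. At 45 d both passed the filter on low counts through whole brain alone. They could be called in no direction but lower there, so that direction is no support for a difference. CHAT lost its 45 d call with DESeq2 (adjusted p = 0.388). Their part in the ISL1 and LHX8 values was not tested.

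NEUROD6 (chromosome 2, 35631205 to 35632218, minus strand) was the only one of the 7 with more scaled reads in HVC than in whole brain. It had 484 reads in R92L1, 531 in R92L2, 238 in 100 d HVC, 551 in 45 d whole brain and 320 in 100 d whole brain. The scaled reads were 535, 486, 238, 304 and 212, which puts both 45 d HVC libraries, 1.10-fold apart, above the other 3. The log2 fold change of HVC against whole brain was 0.75 (SE 0.30, edgeR adjusted p = 0.209) at 45 d and 0.16 (SE 0.36, adjusted p = 1) at 100 d, and neither passed the threshold. With relative log expression the 45 d value was 1.29 and passed it (edgeR adjusted p = 0.00706).

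Of the fitted pallial transcription factors, 10 of 12 at 45 d and 7 of 10 at 100 d had a log2 fold change below 0, beside 55.2% and 54.2% of all fitted transcripts. Of 33 genes 17 were listed anywhere, and at 45 d 7 were called lower in HVC and 1 higher, beside 21.5% and 14.0% of all fitted transcripts. At 100 d 4 were called lower and 1 higher, beside 14.0% and 10.9%. EOMES at 45 d passed the filter on low counts through whole brain alone and could be called only lower. NR2F1 at 100 d passed it through HVC alone and could be called only higher. The list's median log2 fold changes were -1.16 and -1.33, against -0.69 and -0.42 over all fitted transcripts. The summed scaled reads of the 9 members counted in all 5 libraries did not separate the tissues. They ranged from 3953 to 4484 in HVC and from 3829 to 4322 in whole brain. ZEB2 made up a large part of these sums, with 2802, 3185 and 3107 reads in HVC and 2943 and 2752 in whole brain. No sum without ZEB2 was taken, so the sums do not describe the other members. ZEB2, the fitted member with the most reads, had log2 fold changes of 0.89 and 0.77 and was not called. At 45 d ZEB2 was called higher with relative log expression and without the filter. LHX9, a LIM homeodomain factor of medial pallium and thalamus, had 7, 14 and 8 reads in HVC and 175 and 188 in whole brain, with log2 fold changes of -3.20 (SE 0.50, edgeR adjusted p = 0.000273) and -3.94 (SE 0.71, adjusted p = 1.06e-05). EOMES, a T-box factor of excitatory neuron precursors in pallium and cerebellum, had 7, 8 and 10 reads in HVC and 113 and 128 in whole brain, with log2 fold changes of -3.04 (SE 0.55, edgeR adjusted p = 0.00137) and -3.07 (SE 0.73, adjusted p = 0.00302). LHX9 lost its 100 d call with DESeq2, and EOMES lost its 45 d call with DESeq2 and its 100 d call with sums of listed counts, TMM and DESeq2.

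The pallial factor called higher was SOX5, a postmitotic factor of deep layer cortical neurons in mouse, with 253, 282 and 275 reads in HVC and 232 and 162 in whole brain. SOX5 gave log2 fold changes of 1.07 (SE 0.33, edgeR adjusted p = 0.0670) at 45 d and of 1.35 (SE 0.39, adjusted p = 0.0269) at 100 d, and both calls were lost with sums of listed counts, DESeq2 and limma-voom, the 100 d call also with TMM. PAX6, LHX9 and ETV1 each stand in another list as well, so the lists are not independent. The count of pallial factors called depended on the scaling and the tool. With relative log expression 2 were called lower and 2 higher at 45 d, and 2 and 1 at 100 d. With TMM these counts were 2 and 1, and 1 and 0. Sums of listed counts gave 3 and 0, and 1 and 0, limma-voom 4 and 0, and 2 and 0, and DESeq2 1 and 0, and 0 and 0.

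Diencephalic, midbrain and hindbrain transcription factors were lower in HVC wherever they were called. Of 48 genes 12 were listed anywhere, 4 of the 5 fitted were called lower at 45 d and 3 of 5 at 100 d, and 0 were called higher at either age. Of all fitted transcripts 21.5% and 14.0% were called lower. IRX1 and LMX1B at 45 d and TFAP2B at 100 d passed the filter on low counts through whole brain alone. They could be called in no direction but lower, so their direction is no support for a difference. The list's median log2 fold changes were -2.54 and -2.82, against -0.69 and -0.42 over all. Under each of the 3 other scalings 3 were called at 45 d and 1 at 100 d, and DESeq2 called 2 and 0. The factors called were LHX9, TCF7L2 and IRX1 at both ages and TSHZ2 at 45 d. The TSHZ2 call was lost under all 3 other scalings, with DESeq2 and with limma-voom. TCF7L2, a Wnt pathway factor of thalamic neurons, had 55, 63 and 94 reads in HVC and 626 and 498 in whole brain, with log2 fold changes of -2.54 (SE 0.32, edgeR adjusted p = 1.50e-05) and -1.81 (SE 0.43, adjusted p = 0.00280). IRX1, an Iroquois homeobox factor, had 6, 8 and 11 reads in HVC and 116 and 118 in whole brain, with log2 fold changes of -3.18 (SE 0.56, edgeR adjusted p = 0.000892) and -2.82 (SE 0.73, adjusted p = 0.00889). The 100 d calls of TCF7L2 and IRX1 were lost under all 3 other scalings and with DESeq2, and IRX1 lost its 45 d call with DESeq2.

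**Figure D3:**
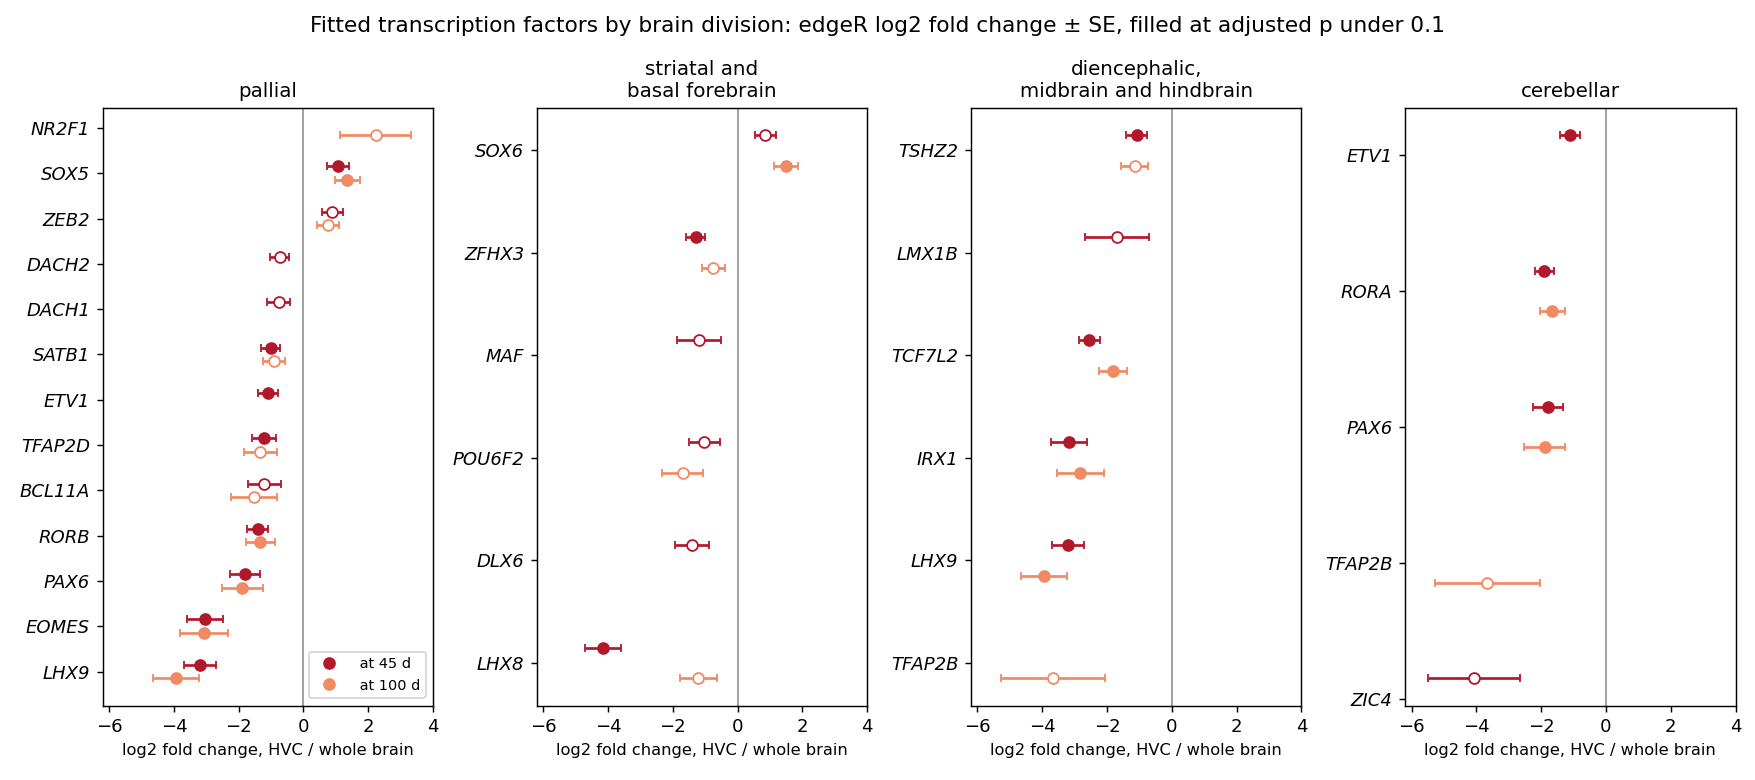
Log2 fold change of HVC against whole brain, with SE, of the fitted members of 4 lists of regional transcription factors at 45 d and at 100 d, from edgeR; circles are filled where the adjusted p was under 0.1. Most members lie left of 0, with the filled circles of LHX9, EOMES, IRX1 and LHX8 at 45 d beyond -3, and the filled circles to the right are SOX5 at both ages and SOX6 at 100 d.

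Among 32 paralogs and direct partners of the 7 factors only 6 were listed anywhere. At 45 d 1 of the 3 fitted was called higher and 1 lower, beside 14.0% and 21.5% of all fitted transcripts. At 100 d 0 of 1 was called, beside 24.8% of all fitted transcripts in either direction. LMO1, a LIM-only protein that binds the partner of LIM homeodomain factors, had 456 reads in R92L1, 462 in R92L2, 227 in 100 d HVC and 342 in 45 d whole brain, and it was higher in 45 d HVC by 1.29 (SE 0.32, edgeR adjusted p = 0.0178), a call lost with DESeq2. LDB1, the cofactor that ISL1 and LHX8 bind, had 41, 28 and 31 reads in HVC and 198 and 143 in whole brain. It was lower in 45 d HVC by a log2 fold change of -1.63 (SE 0.41, edgeR adjusted p = 0.0229), a call lost under all 3 other scalings and with DESeq2.

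Between the ages none of the 7 was called, in HVC (3 fitted, 0% of 2150 transcripts called) or in whole brain (4 fitted, 0.152% of 1318 called). For the ages in HVC 444 transcripts had an unadjusted p under 0.05, DESeq2 called 2 and limma-voom 0. That fit had 1 residual degree of freedom, so the lack of a call does not show that the ages are alike. NEUROD6 had the smallest p of the 3 fitted for the ages in HVC (unadjusted p = 0.00319, edgeR quasi-likelihood test). The authors reported a significant change of NEUROD6 between these ages by RT-qPCR of HVC. In their RNA-Seq comparison of these ages NEUROD6 passed an unadjusted p cutoff but not q under 0.1. Other genes did pass q under 0.1 there, unlike in the fit used here. Its level at 100 d, 238 scaled reads, lay below both 45 d libraries (535 and 486), with a log2 fold change of -1.10 (SE 0.27, edgeR adjusted p = 1). In whole brain the log2 fold change of NEUROD6 was -0.52 (SE 0.34, edgeR adjusted p = 1). The difference between these age effects was -0.58 (SE 0.45, edgeR test of age by tissue, adjusted p = 1), and the age effects of HVC and whole brain were not shown to differ.

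Among the other factors in HVC, EBF1 had a log2 fold change of 1.09 (SE 0.67, edgeR adjusted p = 1) from 45 d to 100 d and ZIC1 of 0.70 (SE 0.61, adjusted p = 1), and in both the 100 d library lay above both 45 d libraries. EBF3 and ISL1 did not pass the filter there, and the 100 d level was 0.599 of that at 45 d for EBF3 (95% counting interval 0.106 to 2.33). For ISL1, with 1 read at each age, that ratio was 2.0 (0.0254 to 157). In whole brain the log2 fold changes were 0.08 (SE 0.41) for ZIC1, 0.21 (SE 0.43) for EBF3 and -0.35 (SE 1.03) for ISL1, each with an edgeR adjusted p of 1, and the ZIC1 value turned to -0.11 with sums of listed counts. The test of age by tissue, fitted for 4 of the 7 and with 0% of 1177 transcripts called (91 at an unadjusted p under 0.05, 0 by DESeq2 and by limma-voom), gave 0.61 (SE 0.63) for ZIC1, -0.94 (SE 0.98) for EBF3 and 1.23 (SE 2.55) for ISL1, all at adjusted p = 1. In this last test the standard errors leave room for differences of 2-fold and more.

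The transcripts with the profiles most like those of the 4 factors counted in all libraries were sought among 829 candidates, as a description over 5 libraries. Likeness was the root mean square difference of centred log2(scaled reads + 1) profiles, where 0 is identity. For ZIC1 they were UNC13C (listed as UNC13C-1, difference 0.20), a presynaptic priming protein of mouse granule cells, FAT2 (0.31) and LHX9 (0.53). UNC13C-1 had 63, 176 and 146 reads in HVC and 4401 and 3735 in whole brain, so its pair of 45 d HVC libraries also differed in the direction of ZIC1. For EBF3 they were C1QTNF3 (0.51), TTR-1 (0.67) and UNC13C-1 (0.77). For ISL1 they were NRXN3-2 (0.26), SLIT3 (0.33) and IRX1 (0.34). NEUROD6 was nearest to RET (0.12), the receptor of the GDNF family, with 64, 84 and 40 reads in HVC and 89 and 51 in whole brain, and then to RPL27 (0.15), a ribosomal protein, and GORASP1 (0.17), a Golgi protein. With a pseudocount of 5 reads, 5 of these 12 places were kept: RET and RPL27 for NEUROD6, UNC13C-1 and FAT2 for ZIC1, and UNC13C-1 for EBF3.

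**Figure D4:**
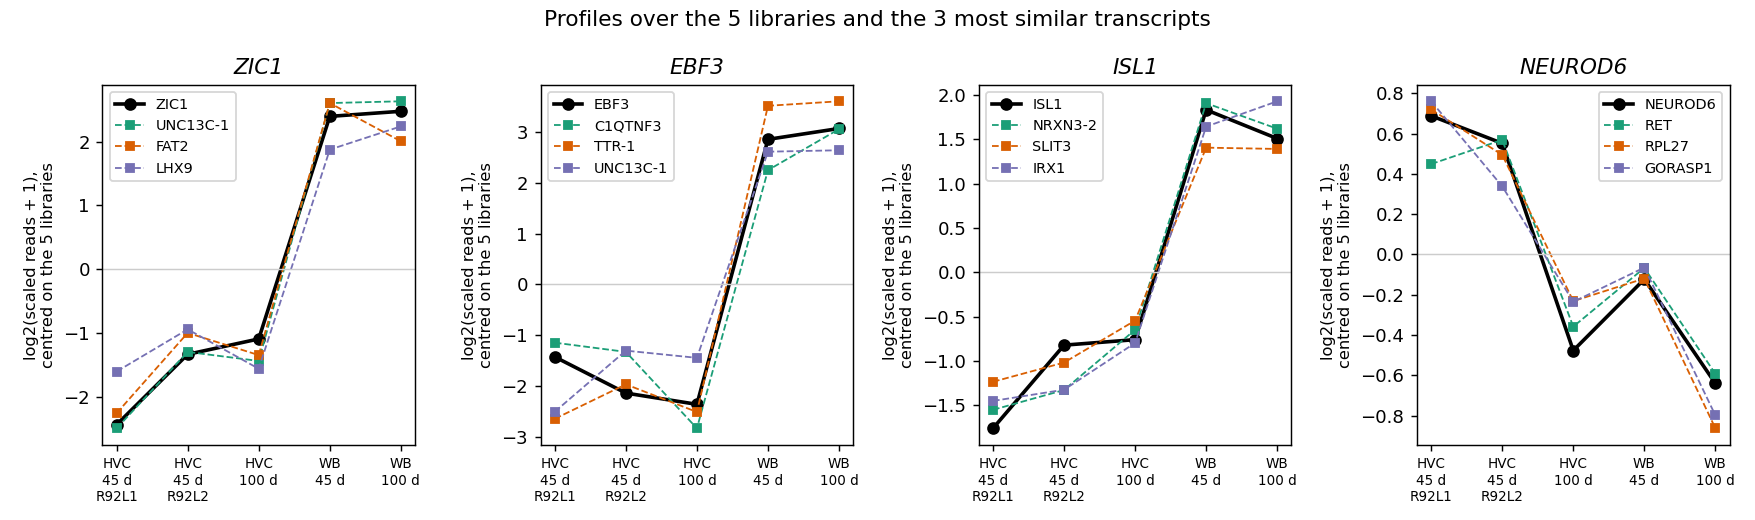
Centred log2(scaled reads + 1) over the 5 libraries for ZIC1, EBF3, ISL1 and NEUROD6 (solid black) and the 3 transcripts with the most similar profile to each (dashed); lines join libraries only to guide the eye. The first 3 factors step up from the HVC to the whole brain libraries, while NEUROD6 and RET, at a root mean square difference of 0.12, are highest in 45 d HVC.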

How the data were processed

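RNA of male zebra finches was amplified with the NuGEN Ovation kit, sequenced on an Illumina GAIIx, mapped with ELAND2 to taeGut1 and counted per Ensembl transcript by the authors, who compared groups with edgeR. Whether counting used strand is not given in the sources used here. The 4 deposited tables hold raw read counts, which are whole numbers, of the 1800 transcripts ranked first by p, out of 11507 tested between the tissues at 45 d, 10859 at 100 d, 11258 between the ages of HVC and 11101 between those of whole brain. They also hold the authors' own log2 fold changes, p-values and q-values. The authors' log2 fold changes served only to solve the relative library sizes, and the authors' p-values and q-values only to count the transcripts tested; none of them is printed. With a scale of its own for each, the 45 d tissue comparison and the HVC age comparison were reproduced to within 7.20e-06. The 1 set of sizes used for all 4 tables missed by at most 0.00315 in log2. Counts that tables share (2217) were identical. Coordinates are those of the tables.

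Counts were joined by transcript and fitted with edgeR 4.0.16 (glmQLFit, glmQLFTest, 1 mean per group) after filterByExpr, over transcripts counted in R92L1, R92L2 and each library compared, with 1 residual degree of freedom. The filter asked for enough reads in at least 1 library, so a transcript passing through 1 tissue or 1 age alone could be called in 1 direction only. Among the factors and markers named, EBF3, ISL1, ZIC4, EOMES, IRX1, LHX8, CHAT, SLC5A7, DRD2, GABRA6 and SLC1A6 passed through whole brain alone at 45 d. LMX1B did so at 45 d as well. At 100 d EBF3, GABRA6, SLC1A6 and TFAP2B did. PVALB-1 at both ages and NR2F1 at 100 d passed through HVC alone. For the ages in HVC, LHX8, CHAT, SLC5A7 and DRD2 passed through 100 d HVC alone. Between the tissues at 100 d edgeR's prior degrees of freedom came out infinite, so the trend over transcripts set the spread there. Benjamini-Hochberg adjustment used the number of transcripts the authors tested, and calls are at an adjusted p under 0.1. SE is the log2 fold change over the square root of F. Exact 95% intervals cover counting error only, and a ratio to the floor of 3 reads over a group is no lower bound. R92L1 and R92L2 differed beyond counting noise (common dispersion 0.0430 over 2222 transcripts). Which of them is the first replicate is not stated. Alternatives were sums of listed counts, TMM, relative log expression, no filter, DESeq2 1.42.0, limma-voom (limma 3.58.1), a threshold of 0.05 and leaving out each 45 d HVC library. The fits were also run on simulated data with known fold changes, in which every library had the common dispersion of the fit. Those data cannot check whether single libraries vary like the 45 d HVC pair. Named are the 7 factors and, of each list, up to 3 called transcripts per comparison with the largest change and a mean of at least 20 reads. ZIC4, TSHZ2, ZEB2, LMX1B, TFAP2B, NR2F1 and marker genes were named, and the pallial sum was added, after their values were seen. The 3 nearest profiles were taken among transcripts with a mean of at least 20 reads. One gene that stood in a pair of the lists is not reported here and was left out of their counts. The members and lists were chosen with earlier results of these data known. Work used R 4.3.3, Python 3.11.15, numpy 2.4.6, pandas 2.3.3, scipy 1.17.1 and matplotlib 3.10.9.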

Additional observations from a re-analysis of the deposited data

How the results depend on the processing

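Of 140 tested values of the 7 factors under alternatives, 132 kept their direction and their side of the threshold, 6 lost a call, 1 gained one and 1 reversed. ISL1 at 45 d lost its call at -4.19 (sums of listed counts), -3.95 (TMM), -3.72 (relative log expression), -4.48 (DESeq2) and -3.70 (limma-voom), and its -4.22 does not pass a threshold of 0.05. NEUROD6 at 45 d gained a call at 1.29 with relative log expression, and ZIC1 between ages in whole brain turned to -0.11 with sums of listed counts; the causes were not tested. The number of transcripts called at 45 d moved from 683 to 232 (sums), 316 (TMM), 123 (DESeq2) and 336 (limma-voom). At 100 d it moved from 338 to 75 (sums), 62 (TMM), 188 (relative log expression), 35 (DESeq2) and 203 (limma-voom). For the ages in HVC it moved from 0 to 6 (TMM), 10 (no filter) and 2 (DESeq2). For the ages in whole brain it moved from 2 to 4 (no filter), 1 (threshold 0.05) and 0 (sums, TMM, relative log expression, DESeq2 and limma-voom). For age by tissue it moved from 0 to 4 (relative log expression) and 4 (no filter). A pseudocount of 5 reads kept 5 of 12 nearest profiles. Leaving out R92L1 or R92L2 left no residual degree of freedom and thus no test, and all 40 such values of the 7 kept their direction. The 45 d log2 fold changes then ranged from -4.97 to -3.79 (ZIC1), -5.29 to -4.45 (EBF3), -6.92 to -3.47 (ISL1, which has 0 reads in R92L1), -2.30 to -1.21 (EBF1), -0.85 to -0.57 (MEIS2) and 0.68 to 0.81 (NEUROD6). The ages in HVC ranged from -1.17 to -1.03 (NEUROD6), 0.67 to 1.76 (EBF1) and 0.25 to 1.43 (ZIC1). No paired analysis was possible because the groups compared share fewer than 2 replicate numbers, 45 d HVC alone being repeated. Depth limits ISL1, ZIC4 and, in HVC, EBF3.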

Other observations

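LHX8 had 10 reads in the 45 d HVC pair together and 47 in 100 d HVC, a ratio of scaled reads of 9.39 (95% counting interval 4.68 to 20.8), while whole brain had 163 and 165 reads. The edgeR log2 fold change of LHX8 in HVC was 3.21 (SE 0.58, adjusted p = 0.370), and adjusted p ranged from 0.105 to 1 under the alternatives, so the difference between ages was not called. The cholinergic markers lay on the same side: CHAT had 2, 2 and 11 reads in R92L1, R92L2 and 100 d HVC, and SLC5A7 had 0, 0 and 29. For the ages in HVC, LHX8, CHAT, SLC5A7 and the striatal marker DRD2 passed the filter on low counts through 100 d HVC alone. With the filter they could be called only higher at 100 d, so their shared side is no support for a difference. SLC5A7 was not called for the ages in HVC (edgeR adjusted p = 0.350) except without the filter on low counts (adjusted p = 0.0695). The edgeR test of age by tissue gave 2.93 (SE 0.76, adjusted p = 0.866) for LHX8 and 7.72 (SE 1.58, adjusted p = 0.270) for SLC5A7. In that test no alternative called LHX8. SLC5A7 was called there with relative log expression and without the filter (lowest adjusted p = 0.0177). ISL1, which marks basal forebrain cholinergic neurons in mouse, had 0, 1 and 1 reads in R92L1, R92L2 and 100 d HVC. The striatal markers DRD2 and PDE10A were on that side too, with log2 fold changes of 1.76 (edgeR adjusted p = 1) and 1.66 (adjusted p = 0.225), and PDE10A was called with TMM, without the filter and with DESeq2 (lowest adjusted p = 0.0586). The astrocyte markers SLC1A3 and SLC1A2 lay on the other side at -0.94 and -0.83 (edgeR adjusted p = 1 for both). The part of these cell types in the LHX8, CHAT and SLC5A7 values was not tested.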
